A study of Mus musculus with 20 samples.

Results

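The 43 genes described here encode chaperones, disulfide enzymes, prolyl isomerases and degradation factors of the endoplasmic reticulum (ER), with 5 sensors and transcription factors linked to them. They were chosen by symbol from a written list that was drawn up with earlier results of these data known. All 43 were among the 43472 genes counted, and all 43 passed the filter on low counts (a normalized count of 10 or more in 5 or more of the 20 libraries), which left 15261 genes to test. They fall into 6 roles: 11 genes of the BiP and HSP90 chaperone cycle, 3 of the calnexin cycle, 10 of disulfide formation, 4 prolyl isomerases, 10 of ER-associated degradation and 5 regulators.

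RNA was sequenced from snap-frozen ventral prostate of male mice. There were 4 groups of 5 libraries: ARNoC/Y mice given testosterone, ARNoC/Y mice given vehicle, wild-type C57BL/6J (WT) mice given testosterone and WT mice given vehicle. All animals in the 4 groups had been orchidectomised, and testosterone or vehicle was then given for 4 days. The series gives ARNoC as the name of the genotype, and neither the change it carries, the age of the animals nor the dose is given in the sources used here. No group with intact testes is compared, so the vehicle groups are castrated tissue and not a normal prostate. The labels do not tie the libraries to individual animals, so a p-value here reflects only how much the libraries of a group vary, and that variation may be technical.

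Secreted and membrane proteins fold in the ER. BiP, an HSP70 chaperone, holds unfolded chains with the help of J-domain partners and exchange factors, calnexin and calreticulin hold glycoproteins, protein disulfide isomerases set disulfide bonds, and chains that fail are drawn back to the cytosol and degraded. When unfolded chains build up, the sensors IRE1, ATF6 and PERK start the unfolded protein response, in which ATF6 and the spliced form of XBP1 switch on many of these genes. The ventral prostate is an androgen-dependent gland whose luminal cells secrete large amounts of protein.

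The libraries held between 8861646 and 21600352 counted reads. In all 40 pairs of replicates the counts differed by more than sampling noise, with chi-square values of 7.97 to 42.9 per degree of freedom. The 11 luminal markers were present in every group, and their summed normalized counts were 71824 to 85564 in ARNoC with testosterone, against 75736 to 87997 in ARNoC with vehicle, and 68135 to 80630 in WT with testosterone, against 67821 to 81433 in WT with vehicle. Of these 11, 3 were called higher with testosterone and 6 lower in each genotype, with median log2 changes of -0.27 in ARNoC and -0.24 in WT. Of all genes tested, 19.4% were called higher and 16.8% lower in ARNoC, and 20.4% higher and 18.8% lower in WT. Summed seminal vesicle markers, from a neighbouring gland, stayed at or below 50.7 in every library.

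The promoters of these genes are shown first because several hold a motif known from the unfolded protein response. The ER stress response element (ERSE) is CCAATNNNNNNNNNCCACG, in which CCAAT is bound by NF-Y and CCACG by ATF6. Promoter sequences, from 250 bases before to 50 bases after the annotated start, were available from RefSeq (build GRCm38.p6) for 36 of the 43 genes. Those of Atf6, Sil1, Manf, Derl1, Hyou1, Erp29 and Creb3l1 were not used here. An exact ERSE on either strand was present in 9 of the 36 (25%), against 37 of 27025 genes (0.137%) in the whole table. The 10 matches in these 9 genes are printed below with 10 bases on each side, 5′ to 3′ along the strand on which the motif reads, with both conserved blocks in capitals. The 9-base spacer between them is in lower case, and the distance is the number of bases from the nearer end of the motif to the transcript start.
Hspa5, chr2:34772015-34772053, plus strand, 46 bases before the start: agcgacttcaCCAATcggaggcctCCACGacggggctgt
Hsp90b1, chr10:86705628-86705666, minus strand, 193 bases before the start: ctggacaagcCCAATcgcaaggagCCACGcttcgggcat
Hsp90b1, chr10:86705523-86705561, plus strand, 88 bases before the start: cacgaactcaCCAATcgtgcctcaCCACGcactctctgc
Dnajc3, chr14:118937817-118937855, plus strand, 86 bases before the start: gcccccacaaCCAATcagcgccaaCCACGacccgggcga
Calr, chr8:84847065-84847103, plus strand, 143 bases before the start: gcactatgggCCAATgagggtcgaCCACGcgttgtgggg
Canx, chr11:50325790-50325828, minus strand, 126 bases before the start: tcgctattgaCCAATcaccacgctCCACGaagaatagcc
Pdia6, chr12:17266481-17266519, plus strand, 79 bases before the start: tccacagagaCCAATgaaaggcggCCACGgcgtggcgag
Creld2, chr15:88819510-88819548, minus strand, 107 bases before the start: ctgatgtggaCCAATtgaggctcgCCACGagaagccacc
Syvn1, chr19:6046522-6046560, plus strand, 25 bases before the start: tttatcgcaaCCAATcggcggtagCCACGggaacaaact
Derl3, chr10:75893232-75893270, minus strand, 137 bases before the start: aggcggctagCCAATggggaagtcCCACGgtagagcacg

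The conserved blocks were the same by construction, and the spacers differed. The motif read in the direction of the gene in 6 matches and against it in 4. Whole promoters follow for Hspa5, which encodes BiP, and for Derl3, which had the largest response to testosterone among the 43 genes. Both are printed along the gene's own strand, the plus strand, with the exact ERSE in capitals. In Derl3 it reads against the gene and so appears as CGTGG followed by ATTGG.
Hspa5 promoter, chr2:34771840-34772139, plus strand: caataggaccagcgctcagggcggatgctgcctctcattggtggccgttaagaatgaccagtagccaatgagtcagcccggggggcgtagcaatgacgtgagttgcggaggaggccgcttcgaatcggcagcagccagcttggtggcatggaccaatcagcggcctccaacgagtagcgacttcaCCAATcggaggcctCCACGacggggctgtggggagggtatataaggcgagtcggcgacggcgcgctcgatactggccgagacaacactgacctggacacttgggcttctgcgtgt
Derl3 promoter, chr10:75893148-75893447, plus strand: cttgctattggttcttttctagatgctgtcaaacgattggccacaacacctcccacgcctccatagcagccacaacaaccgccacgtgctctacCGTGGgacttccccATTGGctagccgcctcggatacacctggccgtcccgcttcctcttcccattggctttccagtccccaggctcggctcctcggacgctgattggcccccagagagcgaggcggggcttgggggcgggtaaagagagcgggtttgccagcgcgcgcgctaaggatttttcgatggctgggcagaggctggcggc
Counted on both strands, the Hspa5 promoter held CCAAT 4 times and CCACG 1 time, and the Derl3 promoter held CCAAT 5 times and CCACG 3 times.

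Other motifs were searched on both strands of the same windows, again outside chromosome 18. ERSE-II, which is ATTGG, 1 base of any kind and CCACG, was found in Dnajb11 and Herpud1, against 0.0444% of all genes. The XBP1 motif UPRE, TGACGTGG, was found in Txndc5 and Txndc11, against 0.714% of all genes. Its first 6 letters, TGACGT, alone were in 7 of the 36 genes (19.4%), against 8.37% of all genes. CCAAT was in 28 of 36 (77.8%), against 41.1% of all genes, and CCACG was in 32 of 36 (88.9%), against 35.5%. These 2 blocks overlap the ERSE and the ERSE-II. AGAACA, 1 arm of the androgen response element, was in 6 of 36 (16.7%), against 21.3% of all genes. The full palindrome, AGAACA and TGTTCT with 3 bases of any kind between them, was in 0 of the 36 genes and in 0.0111% of all genes. These are matches of letters in 300-base windows and not measured binding sites.

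Testosterone was followed by higher counts across nearly the whole set, in both genotypes. With testosterone against vehicle, 39 of the 43 genes were higher in ARNoC and 39 were higher in WT. Over all genes tested, 19.4% were called higher in ARNoC and 20.4% in WT. By edgeR, DESeq2 and limma-voom, 0 of the 43 were lower in either genotype, and 0 were lower at an unadjusted p under 0.05, where 16.8% of all genes were called lower in ARNoC and 18.8% in WT. The median log2 fold change of the 43 genes was 1.10 in ARNoC and 1.12 in WT, while the median of all genes tested was -0.01 in ARNoC and -0.02 in WT. A gene was called at an adjusted p under 0.05 in the quasi-likelihood test of edgeR, adjusted by the Benjamini-Hochberg method over all 15261 genes, and every adjusted p given for a single gene comes from that test unless another is named.

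The 5 testosterone libraries all lay above the 5 vehicle libraries for 35 of the 43 genes in ARNoC and for 36 in WT. Of all genes tested, 12.4% had such a separation in ARNoC and 15.2% in WT. The 43 genes together took 2.18 to 2.56% of all counted reads in ARNoC with testosterone, against 1.30 to 1.67% in ARNoC with vehicle. In WT they took 2.08 to 2.70% with testosterone, against 1.16 to 1.41% with vehicle. The 2 treatments did not overlap in either genotype in these shares, which are scaled only by the total of each library. In tissue RNA such as this, fewer cells of a type and less RNA per cell cannot be told apart.

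Scaling moved the size of the responses. The 10 most abundant genes of each library took 18.4 to 20.8% of reads in ARNoC with testosterone, against 6.81 to 10.4% with vehicle, and 21.4 to 28.1% in WT with testosterone, against 7.99 to 9.56% with vehicle. Dividing by total counts instead of by trimmed means of M-values moved the median of all genes to -0.36 in ARNoC and -0.44 in WT, and the median of the 43 genes to 0.75 in ARNoC and 0.68 in WT. On that scale 33 of the 43 genes were called higher in ARNoC and 33 in WT, and Ern1 was called lower in both. Of all 15261 genes tested, 1178 were called higher and 7548 lower in ARNoC on the same scale, and 1099 higher and 9120 lower in WT.

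**Figure D1:**
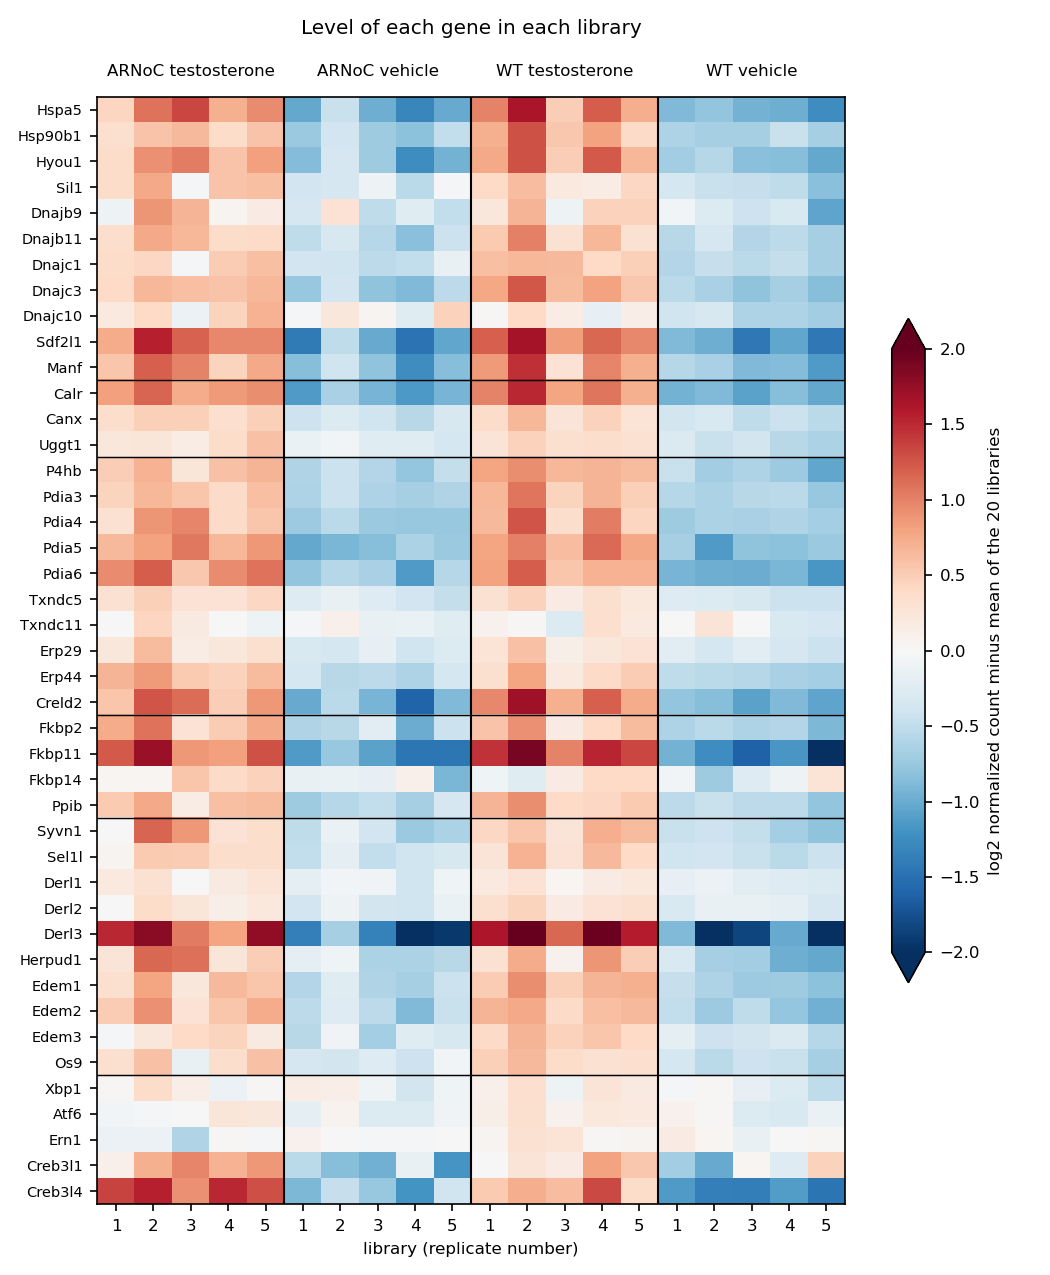
Level of each of the 43 genes (rows, by role) in each of the 20 libraries (columns, by group and replicate number), as log2 normalized count minus the mean of the 20 libraries. Red is above and blue is below that mean, and colours saturate at 2 log2 units on either side. Nearly all rows are red in both testosterone blocks and blue in both vehicle blocks, and Txndc11, Xbp1, Atf6 and Ern1 are among the palest.

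Libraries of 1 group differed together. Among the 5 ARNoC testosterone libraries, library 2 had the highest count in 27 of the 43 genes, and among the 5 WT testosterone libraries, library 2 had the highest count in 36. Among vehicle libraries, ARNoC library 4 had the lowest count in 30 genes and WT library 5 in 32. The summed counts of 11 fibroblast markers moved the other way in these 4 libraries. They were lowest of the group in ARNoC testosterone library 2 (10422, with a group maximum of 27393) and in WT testosterone library 2 (4832, with a maximum of 18985). They were highest of the group in ARNoC vehicle library 4 (50154, with a minimum of 6084) and in WT vehicle library 5 (62280, with a minimum of 8546). The summed 14 myeloid markers had the same 4 libraries at the same ends, and the part of stroma and myeloid cells in the results was not tested.

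Markers of other cells also differed between treatments. Summed myeloid markers were 2987 to 5933 in ARNoC with testosterone, against 3188 to 13611 with vehicle, and 1802 to 3962 in WT with testosterone, against 3647 to 20156 with vehicle. None of the 14 was at 0 in any group, and 11 were called lower with testosterone in ARNoC and 14 in WT. Of 11 fibroblast markers, 1 was called lower in ARNoC and 6 in WT. The median changes of smooth muscle markers had the same sign as those of the 43 genes (log2 0.78 in ARNoC and 0.59 in WT). Of these 9 markers, 5 were called higher in ARNoC and 1 in WT. For comparison, 19.4% of all genes were called higher and 16.8% lower in ARNoC, and 20.4% higher and 18.8% lower in WT. Libraries of the 2 treatments overlapped for each of the 9 smooth muscle markers in both genotypes. Their sums were 20731 to 48638 in ARNoC with testosterone, against 12513 to 37150 with vehicle, and 12464 to 43035 in WT with testosterone, against 12255 to 24551 with vehicle. Of 7 basal cell markers tested, 4 were called lower in ARNoC, and 3 were called lower and 1 higher in WT. Of 9 endothelial markers, 3 were called lower in WT, while in ARNoC edgeR called 0 and 0 had an unadjusted p under 0.05. The part of these cell types in the results was not tested. Plasma and B cells also make much ER, and their 12 markers summed to 1942 to 8044 in ARNoC with testosterone, against 1333 to 9815 with vehicle, and 981 to 12274 in WT with testosterone, against 5994 to 24464 with vehicle. Of the 10 that were tested, 0 were called higher in either genotype, 0 were called lower in ARNoC (0 at an unadjusted p under 0.05) and 2 were called lower in WT, by edgeR. Without the 2 vehicle libraries poorest in stromal markers, WT library 2 and ARNoC library 5, the counts called higher were 37 in ARNoC and 39 in WT.

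**Figure D2:**
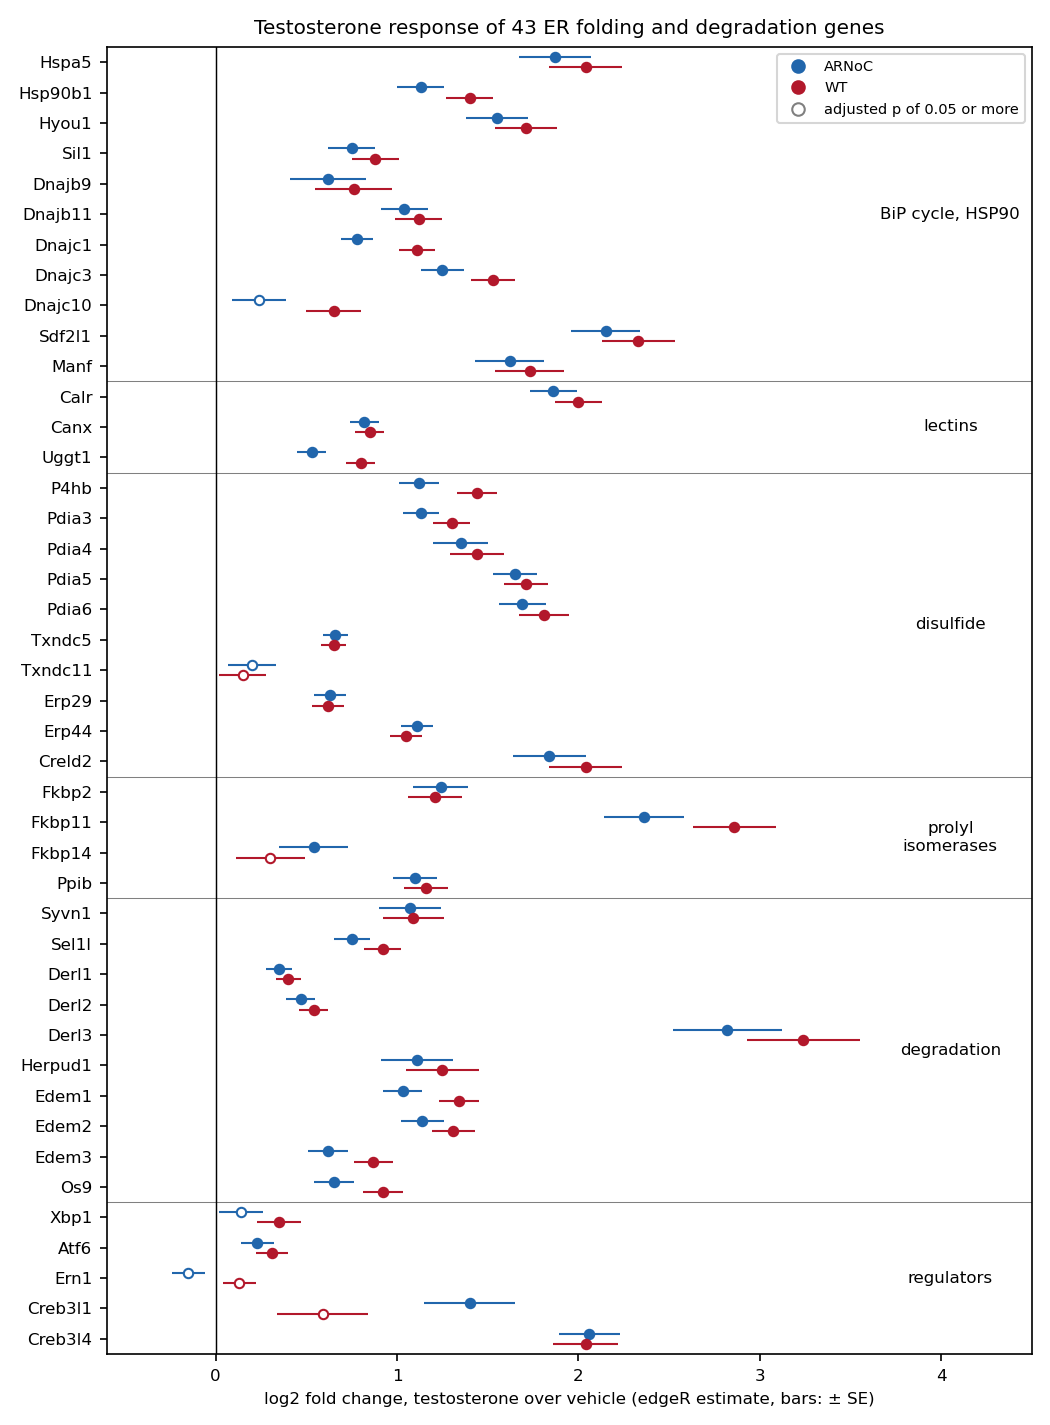
Fold change with testosterone over vehicle of each of the 43 genes on a log2 scale, with ARNoC in blue above WT in red, as edgeR estimates with bars of ± 1 SE, n = 5 libraries per group. Open circles did not reach an adjusted p under 0.05. Derl3 and Fkbp11 lie farthest to the right, and Xbp1 and Ern1 in ARNoC and Txndc11 and Ern1 in WT lie closest to 0. Under total-count scaling the estimates of Dnajc10, Txndc11, Xbp1 and Atf6 in ARNoC and of Txndc11, Fkbp14, Derl1, Xbp1, Atf6 and Ern1 in WT move below 0, where Ern1 in ARNoC already lies.

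In the BiP and HSP90 cycle, testosterone was followed by higher counts of 10 of the 11 genes in ARNoC and of 11 in WT, with median log2 changes of 1.13 in ARNoC and 1.40 in WT. The shares of all genes called higher were 19.4% in ARNoC and 20.4% in WT. Hspa5, the ER's own HSP70, had 23977, 37666, 44875, 29095 and 34142 normalized counts in ARNoC with testosterone, against 8705, 13024, 9026, 7174 and 8767 in ARNoC with vehicle. In WT it had 35424, 55056, 25016, 41171 and 29284 with testosterone, against 9643, 10220, 9153, 9002 and 7473 with vehicle. Every testosterone library was above every vehicle library in both genotypes. Hspa5 was 3.65-fold higher in ARNoC (log2 1.87 ± 0.20, SE; adjusted p = 5.42e-07) and 4.10-fold higher in WT (log2 2.04 ± 0.20; adjusted p = 1.74e-07).

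Dnajc3 encodes p58IPK, a J-domain partner of BiP. It had 10733, 12869, 12381, 12149 and 12926 normalized counts in ARNoC with testosterone, against 4817, 6272, 4684, 4406 and 5659 with vehicle. WT libraries had 13918, 19333, 12583, 14255 and 11858 with testosterone, against 5620, 5185, 4676, 5132 and 4502 with vehicle. The treatments did not overlap, and the response was 2.37-fold in ARNoC (log2 1.25 ± 0.12; adjusted p = 1.01e-07) and 2.88-fold in WT (log2 1.53 ± 0.12; adjusted p = 7.06e-09). Sdf2l1, which works with the J protein ERdj3, had 1370, 2402, 1850, 1599 and 1588 normalized counts in ARNoC with testosterone, against 307, 579, 409, 295 and 399 with vehicle. WT libraries had 1877, 2607, 1459, 1823 and 1593 with testosterone, against 446, 418, 304, 397 and 305 with vehicle. It had the largest response of this role, 4.43-fold in ARNoC (log2 2.15 ± 0.19; adjusted p = 4.68e-08) and 5.03-fold in WT (log2 2.33 ± 0.20; adjusted p = 1.84e-08).

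Dnajc10 encodes ERdj5, a J protein that also reduces disulfides of chains bound for degradation. Its normalized counts were 33406, 38657, 26823, 39783 and 47303 in ARNoC with testosterone, against 28478, 34361, 30230, 24645 and 40418 with vehicle. In WT they were 29703, 38598, 32275, 26185 and 32180 with testosterone, against 22243, 23327, 19101, 19139 and 18097 with vehicle. The treatments overlapped in ARNoC and did not in WT. Dnajc10 was the 1 gene of this role not called in ARNoC (1.18-fold, log2 0.24 ± 0.15; adjusted p = 0.223), and it was 1.57-fold higher in WT (log2 0.65 ± 0.15; adjusted p = 0.00164). The WT call was lost under total-count scaling (log2 0.22; adjusted p = 0.129). A difference between the 2 responses of Dnajc10 was not shown (interaction log2 -0.41 ± 0.21, adjusted p = 0.603).

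The other 7 genes of the cycle were higher in both genotypes. Hyou1, the large exchange factor GRP170, was 2.93-fold higher in ARNoC and 3.28-fold higher in WT. Manf, a small secreted protein that binds BiP, was 3.07-fold higher in ARNoC and 3.31-fold in WT. Hsp90b1, the ER's HSP90 known as GRP94, was 2.19-fold higher in ARNoC and 2.63-fold in WT. Dnajb11, which encodes ERdj3, was 2.06-fold higher in ARNoC and 2.17-fold in WT, and Dnajc1, the membrane-bound ERdj1, was 1.71-fold higher in ARNoC and 2.16-fold in WT. Sil1, a second exchange factor of BiP, was 1.68-fold higher in ARNoC and 1.85-fold in WT. Dnajb9, or ERdj4, was 1.54-fold higher in ARNoC (adjusted p = 0.0238) and 1.70-fold in WT (adjusted p = 0.00652), and it was the 1 gene of these 7 whose treatments overlapped in both genotypes. The ARNoC call of Dnajb9 was lost without any 1 of ARNoC vehicle libraries 1, 3 or 5 or ARNoC testosterone libraries 2 or 3, with adjusted p-values of 0.0516, 0.0604, 0.0547, 0.114 and 0.0851 in that order. It was also lost without the 2 vehicle libraries poorest in stromal markers (adjusted p = 0.0596), and under total-count scaling the call was lost in both genotypes (log2 0.27 in ARNoC and 0.34 in WT; adjusted p = 0.261 and 0.143).

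In the calnexin cycle all 3 genes were higher in both genotypes, beside 19.4% of all genes in ARNoC and 20.4% in WT. Calr, calreticulin, is the soluble lectin chaperone and a store of ER calcium. Its normalized counts were 22460, 28347, 21130, 22755 and 24060 in ARNoC with testosterone, against 5758, 8076, 6670, 5690 and 6663 with vehicle. In WT they were 25122, 36053, 21906, 26476 and 20836 with testosterone, against 6593, 6877, 6035, 7029 and 6248 with vehicle. Calr was 3.63-fold higher in ARNoC (log2 1.86 ± 0.13; adjusted p = 1.59e-09) and 4.00-fold higher in WT (SE 0.13 on the log2 scale; adjusted p = 6.41e-10), the smallest adjusted p of the 43 genes in both.

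Canx, calnexin, is its membrane-bound counterpart. It had 9047, 9843, 9815, 8941 and 9871 normalized counts in ARNoC with testosterone, against 5294, 5861, 5343, 4841 and 5656 with vehicle. The WT libraries held 9145, 11171, 8458, 9772 and 8525 with testosterone, against 5487, 5706, 4969, 5236 and 4857 with vehicle. The treatments did not overlap, and the response was 1.77-fold in ARNoC (log2 0.82 ± 0.08; adjusted p = 9.60e-08) and 1.80-fold in WT (log2 0.85 ± 0.08; adjusted p = 5.99e-08). The ratio of Calr to Canx within a library was 2.06-fold higher with testosterone in ARNoC and 2.19-fold higher in WT (exact two-sided permutation test, p = 0.00794 in both, the smallest it can give with 5 against 5; adjusted p = 0.0189 over 62 ratios). Uggt1, the glucosyltransferase that sends misfolded glycoproteins back into the cycle, was 1.45-fold higher in ARNoC and 1.74-fold in WT, and its ARNoC call was lost under total-count scaling (log2 0.18; adjusted p = 0.0616).

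Of the 10 disulfide enzymes and thioredoxin-fold proteins, 9 were higher in ARNoC and 9 in WT, with median log2 changes of 1.12 in ARNoC and 1.37 in WT. The shares of all genes called higher were 19.4% in ARNoC and 20.4% in WT. Pdia5 and Pdia6 had the smallest adjusted p-values. Pdia5, a low-expressed protein disulfide isomerase, had 226, 252, 301, 228 and 265 normalized counts in ARNoC with testosterone, against 71.2, 76.6, 79.8, 93.1 and 86.1 with vehicle. In WT the counts were 249, 290, 222, 317 and 247 with testosterone, against 90.9, 65.9, 82.8, 81.5 and 86.3 with vehicle. That was 3.14-fold in ARNoC (log2 1.65 ± 0.12; adjusted p = 1.69e-09) and 3.27-fold in WT (log2 1.71 ± 0.12; adjusted p = 1.33e-09).

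Pdia6, known as P5, had 19122, 22949, 14477, 19059 and 21200 normalized counts in ARNoC with testosterone, against 5779, 6665, 6333, 4514 and 6727 with vehicle. In WT it had 17306, 23123, 14655, 16091 and 16127 with testosterone, against 5246, 5038, 4999, 5251 and 4443 with vehicle. The lowest testosterone library was above the highest vehicle library in both genotypes. Pdia6 was 3.23-fold higher in ARNoC (log2 1.69 ± 0.13; adjusted p = 7.96e-09) and 3.51-fold higher in WT (log2 1.81 ± 0.14; adjusted p = 3.33e-09).

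Txndc11, a membrane thioredoxin-like protein, was the exception of this role. Its normalized counts were 1322, 1804, 1513, 1322 and 1238 in ARNoC with testosterone, against 1321, 1437, 1201, 1213 and 1131 with vehicle. In WT they were 1412, 1357, 1100, 1679 and 1535 with testosterone, against 1337, 1597, 1328, 1082 and 1058 with vehicle. The treatments overlapped in both genotypes, with estimates of 1.15-fold in ARNoC (log2 0.20 ± 0.13; adjusted p = 0.233) and 1.11-fold in WT (log2 0.15 ± 0.13; adjusted p = 0.350).

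Among the other members of this role, Creld2, which is secreted under ER stress, was 3.59-fold higher in ARNoC and 4.11-fold in WT. Pdia4, or ERp72, was 2.56-fold higher in ARNoC and 2.72-fold in WT. P4hb, the founding protein disulfide isomerase, and Pdia3, the partner of calnexin and calreticulin known as ERp57, were both 2.18-fold higher in ARNoC, and in WT P4hb was 2.72-fold and Pdia3 2.46-fold higher. Erp44, which retrieves unassembled clients from the Golgi, was 2.17-fold higher in ARNoC and 2.07-fold in WT. Txndc5, or ERp46, was 1.59-fold higher in ARNoC and 1.56-fold in WT. Erp29, a thioredoxin-fold protein without the usual active site, was 1.54-fold higher in ARNoC and 1.53-fold in WT. Of the exon bases of Erp29, 2390 of 9060 also lie in exons of Naa25 or Tmem116 on the other strand, and the strand setting of the count is not given in the sources used here, so reads of these genes cannot be told apart there. Exons of 15 of the 43 genes share between 14 and 2390 bases with another gene.

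The prolyl isomerases, which speed the slow turning of proline bonds, held both one of the strongest and one of the weakest responses. All 4 were higher in ARNoC and 3 were higher in WT, beside 19.4% of all genes in ARNoC and 20.4% in WT. Fkbp11 had 759, 1069, 589, 572 and 782 normalized counts in ARNoC with testosterone, against 148, 191, 154, 119 and 119 with vehicle. WT libraries had 884, 1206, 645, 934 and 819 with testosterone, against 169, 137, 106, 145 and 65.0 with vehicle. The treatments did not overlap, and the response was 5.14-fold in ARNoC (log2 2.36 ± 0.22; adjusted p = 7.83e-08) and 7.25-fold in WT (log2 2.86 ± 0.23; adjusted p = 8.66e-09).

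Ppib, cyclophilin B, had 7741, 9156, 5957, 8166 and 8335 normalized counts in ARNoC with testosterone, against 3293, 3626, 3851, 3405 and 4283 with vehicle. The WT libraries held 8621, 10267, 7094, 7184 and 7790 with testosterone, against 3779, 3962, 3760, 3766 and 3137 with vehicle. Again the treatments did not overlap, at 2.14-fold in ARNoC (log2 1.10 ± 0.12; adjusted p = 3.35e-07) and 2.24-fold in WT (log2 1.16 ± 0.12; adjusted p = 1.52e-07). Fkbp2 was 2.36-fold higher in ARNoC and 2.31-fold in WT.

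Fkbp14, an isomerase that acts on collagen, had 111, 111, 159, 140 and 148 normalized counts in ARNoC with testosterone, against 97.1, 98.2, 95.8, 115 and 57.4 with vehicle. In WT the counts were 102, 90.8, 121, 142 and 142 with testosterone, against 104, 65.9, 90.3, 100 and 130 with vehicle. The treatments overlapped in both genotypes. It was called in ARNoC (1.45-fold, log2 0.54 ± 0.19; adjusted p = 0.0318) and not in WT (1.23-fold, log2 0.30 ± 0.19; adjusted p = 0.230), and the 2 responses were not shown to differ (interaction log2 0.24 ± 0.27; adjusted p = 0.825). The ARNoC call was lost in 12 of 27 alternatives, among them without ARNoC vehicle library 5 (adjusted p = 0.0800), without ARNoC testosterone library 3, 4 or 5 (0.117, 0.0919 and 0.101) and without WT testosterone library 1, 3, 4 or 5 (0.0569, 0.0594, 0.0555 and 0.0547).

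All 10 genes of ER-associated degradation were higher in both genotypes, with median log2 changes of 0.89 in ARNoC and 1.01 in WT. The shares of all genes called higher were 19.4% in ARNoC and 20.4% in WT. Edem1 and Edem2 belong to a family of mannosidase-like proteins that mark glycoproteins for disposal. Edem1 had 3399, 4706, 3163, 4247 and 4002 normalized counts in ARNoC with testosterone, against 1798, 2301, 1781, 1711 and 2010 with vehicle. In WT it had 3871, 5153, 3769, 4338 and 4416 with testosterone, against 1974, 1776, 1641, 1652 and 1532 with vehicle. Its response was 2.04-fold in ARNoC (log2 1.03 ± 0.11; adjusted p = 4.61e-07) and 2.53-fold in WT (log2 1.34 ± 0.11; adjusted p = 1.50e-08).

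Edem2 had 4434, 5900, 3824, 4585 and 5202 normalized counts in ARNoC with testosterone, against 2164, 2601, 2176, 1687 and 2285 with vehicle. WT libraries had 5006, 5254, 4047, 4713 and 4880 with testosterone, against 2204, 1888, 2202, 1830 and 1594 with vehicle. Both Edem1 and Edem2 had all testosterone libraries above all vehicle libraries. Edem2 was 2.20-fold higher in ARNoC (log2 1.14 ± 0.12; adjusted p = 4.28e-07) and 2.47-fold higher in WT (log2 1.31 ± 0.12; adjusted p = 7.06e-08). The third family member, Edem3, was 1.54-fold higher in ARNoC and 1.82-fold in WT.

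Derl3 encodes a derlin, a membrane protein of the channel through which chains leave the ER. It had 1279, 1564, 920, 780 and 1541 normalized counts in ARNoC with testosterone, against 175, 284, 176, 103 and 118 with vehicle. The WT libraries held 1377, 2047, 1000, 1755 and 1331 with testosterone, against 245, 105, 126, 223 and 101 with vehicle. The lowest testosterone library lay far above the highest vehicle library in both genotypes, and the estimates were 7.04-fold in ARNoC (log2 2.82 ± 0.30; adjusted p = 4.17e-07) and 9.42-fold in WT (log2 3.24 ± 0.31; adjusted p = 8.32e-08). Its relatives moved far less, with Derl2 at 1.38-fold in ARNoC and 1.46-fold in WT and Derl1 at 1.28-fold in ARNoC and 1.32-fold in WT. Under total-count scaling the Derl2 calls were lost, with log2 0.12 in both genotypes, and Derl1 came to 0.01 in ARNoC and -0.02 in WT.

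The remaining genes of degradation serve the ubiquitin ligase complex and its lectins. Syvn1, the ubiquitin ligase HRD1, was 2.09-fold higher in ARNoC and 2.13-fold in WT, and Sel1l, its adaptor, was 1.68-fold higher in ARNoC and 1.89-fold in WT. Herpud1, a membrane protein of the same complex, was 2.16-fold higher in ARNoC and 2.38-fold in WT. Os9, a lectin that hands glycoproteins to the ligase, was 1.57-fold higher in ARNoC and 1.89-fold in WT, and it was the 1 gene of degradation whose treatments overlapped, in ARNoC.

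**Figure D3:**
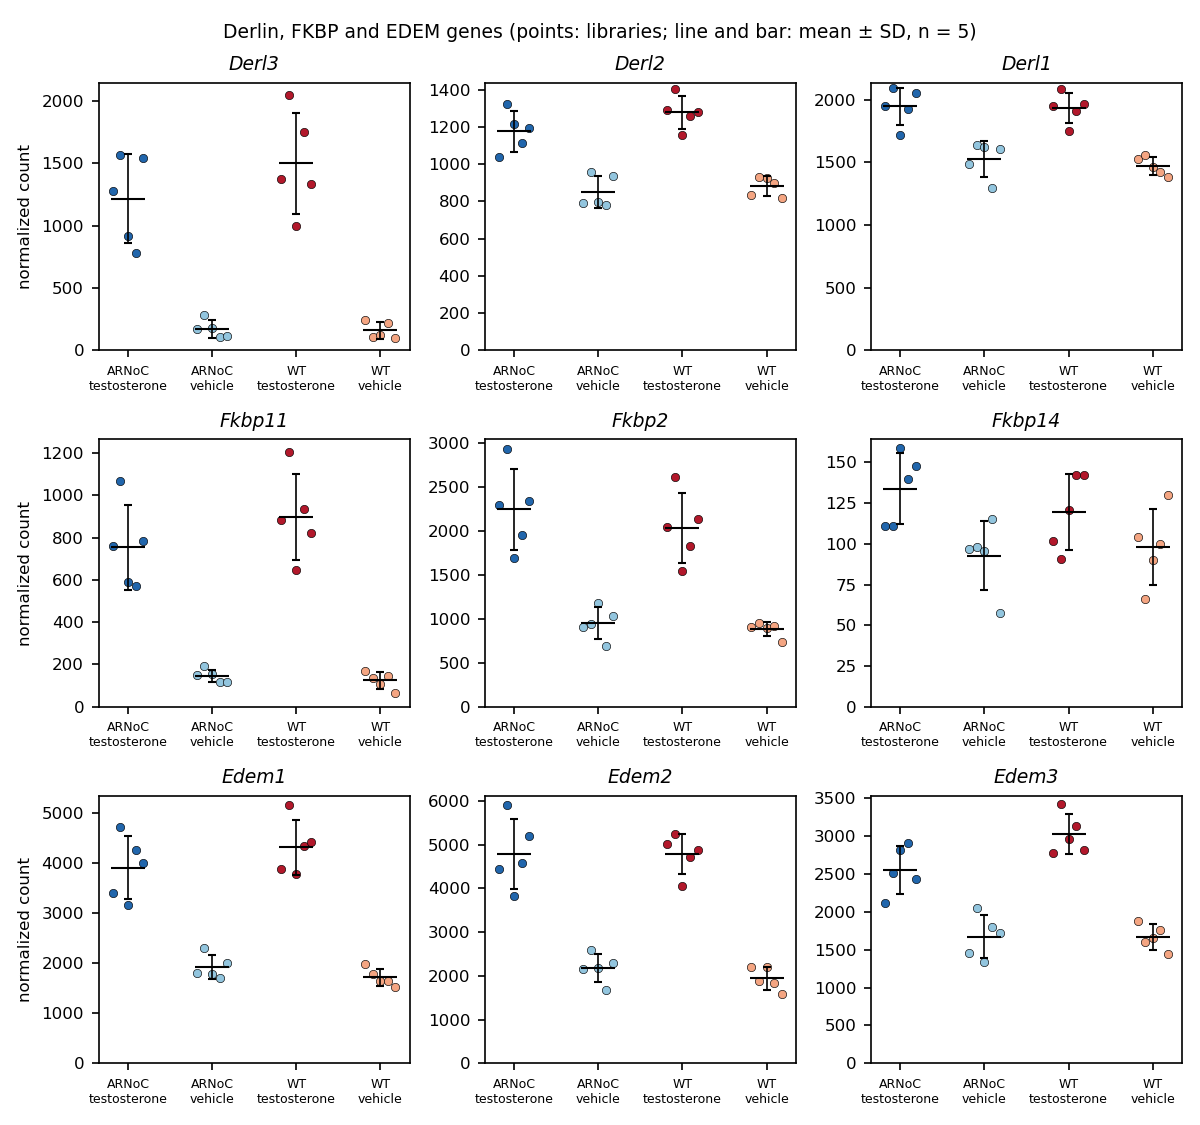
Normalized counts of the derlin genes (top), FKBP genes (middle) and EDEM genes (bottom) in the 4 groups. Points are libraries, and the line and bar are the mean ± SD (n = 5), on a linear axis from 0 that differs between panels. Derl3 and Fkbp11 lie at 284 or below in every vehicle library and at 572 or above in every testosterone library, while the treatments overlap for Fkbp14.

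Members of 1 family differed in their response within the same libraries. For 31 pairs of related genes (derlins, EDEM, FKBP, lectin, PDI, J-protein and CREB3L genes), the log2 ratio of the pair was compared between treatments in each genotype by an exact two-sided permutation test. Of the 62 tests, 34 had an adjusted p under 0.05. The share among pairs of unrelated genes was not computed, and the pairs reuse the same genes and libraries. Of all single genes tested by edgeR, 36.2% were called in either direction in ARNoC and 39.2% in WT. The count of 34 is therefore a description and not a result particular to these families. The ratio of Derl3 to Derl2 was 5.30-fold higher with testosterone in ARNoC and 6.76-fold higher in WT, and that of Derl3 to Derl1 was 5.74-fold higher in ARNoC and 7.46-fold in WT. The ratio of Fkbp11 to Fkbp2 was 2.17-fold higher in ARNoC and 3.27-fold in WT, and that of Fkbp11 to Fkbp14 was 3.48-fold higher in ARNoC and 6.05-fold in WT. For these 4 pairs every testosterone library exceeded every vehicle library in both genotypes (exact permutation p = 0.00794, adjusted p = 0.0189).

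Other pairs differed less or did not pass the test. The ratio of Edem1 to Edem2 changed by 0.923-fold with testosterone in ARNoC (exact permutation p = 0.159, adjusted p = 0.201) and by 1.02-fold in WT (exact permutation p = 0.706, adjusted p = 0.742). For Edem1 to Edem3 the ratio was 1.32-fold higher in ARNoC (exact permutation p = 0.0397, adjusted p = 0.0683) and 1.38-fold higher in WT (exact permutation p = 0.00794, adjusted p = 0.0189). The ratio of Pdia6 to Pdia5 changed by 1.03-fold with testosterone in ARNoC and by 1.06-fold in WT (adjusted p = 0.679 and 0.580, exact permutation tests). That of Pdia6 to P4hb was 1.49-fold higher with testosterone in ARNoC and 1.27-fold higher in WT (adjusted p = 0.0189 in both, exact permutation tests). Among J proteins, Dnajc3 to Dnajc10 was 2.03-fold higher with testosterone in ARNoC and 1.82-fold in WT (adjusted p = 0.0189 in both, exact permutation tests).

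Of the 5 regulators, 3 were higher with testosterone in ARNoC (Creb3l4, Creb3l1 and Atf6) and 3 in WT (Creb3l4, Atf6 and Xbp1), with median log2 changes of 0.23 in ARNoC and 0.35 in WT. The shares of all genes called higher were 19.4% in ARNoC and 20.4% in WT. Xbp1 encodes the transcription factor whose mRNA IRE1 splices, and gene counts do not separate its spliced from its unspliced form. It had 6279, 8000, 6822, 5713 and 6268 normalized counts in ARNoC with testosterone, against 6878, 6818, 5837, 4818 and 5811 with vehicle. In WT the counts were 6635, 7788, 5762, 7423 and 7003 with testosterone, against 6061, 6272, 5552, 5143 and 4336 with vehicle. The treatments overlapped in both genotypes, at 1.10-fold in ARNoC (log2 0.14 ± 0.12; adjusted p = 0.381) and 1.27-fold in WT (log2 0.35 ± 0.12; adjusted p = 0.0249). These 2 responses were not shown to differ (interaction log2 -0.21 ± 0.17, adjusted p = 0.766). The WT call was lost without any 1 of WT vehicle libraries 4 or 5 (adjusted p = 0.0566 and 0.0763) or WT testosterone libraries 2, 4 or 5 (0.0964, 0.0750 and 0.0541), and total-count scaling gave a log2 change of -0.08.

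Ern1 encodes the sensor IRE1 alpha. Its normalized counts were 1919, 1906, 1371, 2095 and 2048 in ARNoC with testosterone, against 2202, 2079, 2027, 2046 and 2085 with vehicle. In WT they were 2148, 2552, 2505, 2103 and 2145 with testosterone, against 2314, 2134, 1876, 2071 and 2101 with vehicle. Neither difference was called, at 0.898-fold in ARNoC (log2 -0.15 ± 0.09; adjusted p = 0.189) and 1.10-fold in WT (log2 0.13 ± 0.09; adjusted p = 0.248). Total-count scaling gave log2 changes of -0.50 in ARNoC (adjusted p = 6.57e-05) and -0.29 in WT (adjusted p = 0.00608), beside shifts of -0.36 in ARNoC and -0.44 in WT in the medians of all genes.

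Atf6 encodes the sensor that is cut in the Golgi to free a transcription factor. It had 1761, 1790, 1808, 2142 and 2118 normalized counts in ARNoC with testosterone, against 1614, 1903, 1512, 1505 and 1728 with vehicle. In WT it had 1980, 2278, 1922, 2106 and 2093 with testosterone, against 1940, 1846, 1509, 1470 and 1667 with vehicle. Its response was small in both genotypes, 1.17-fold in ARNoC (log2 0.23 ± 0.09; adjusted p = 0.0451) and 1.24-fold in WT (log2 0.31 ± 0.09; adjusted p = 0.00737), and total-count scaling turned both to -0.12. The ARNoC call was lost in 18 of 27 alternatives, with adjusted p-values up to 0.224. Those include leaving out WT vehicle library 5 (adjusted p = 0.0515), any 1 WT testosterone library (0.0873 to 0.105), ARNoC vehicle library 1, 3 or 4 (0.0845, 0.105 and 0.112) or any 1 ARNoC testosterone library (0.0707 to 0.224). In WT the call was also lost without WT testosterone library 2 (adjusted p = 0.0507).

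Creb3l4 and Creb3l1 encode ER-bound transcription factors of the same family as ATF6, and CREB3L4 was described in human prostate cells as induced by androgen. Creb3l4 had 2620, 3032, 1937, 2935 and 2515 normalized counts in ARNoC with testosterone, against 553, 747, 612, 451 and 779 with vehicle. WT libraries had 1483, 1713, 1579, 2569 and 1323 with testosterone, against 468, 400, 395, 477 and 376 with vehicle. Its treatments lay far apart, at 4.16-fold in ARNoC (log2 2.06 ± 0.17; adjusted p = 1.66e-08) and 4.12-fold in WT (log2 2.04 ± 0.18; adjusted p = 2.22e-08).

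Creb3l1, the low-expressed relative, had 96.7, 148, 178, 145 and 164 normalized counts in ARNoC with testosterone, against 61.8, 50, 46.4, 81.6 and 39.8 with vehicle. The WT libraries held 89.3, 108, 101, 157 and 131 with testosterone, against 55.8, 45.0, 92.8, 75.0 and 124 with vehicle. The treatments separated in ARNoC (2.63-fold, log2 1.40 ± 0.25; adjusted p = 0.000195) and overlapped in WT (1.51-fold, log2 0.59 ± 0.25; adjusted p = 0.0648). Without WT vehicle library 5, the highest of its group, the WT change was log2 0.81 (adjusted p = 0.0142). A difference between the 2 responses of Creb3l1 was not called (interaction log2 0.80 ± 0.35, adjusted p = 0.538).

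**Figure D4:**
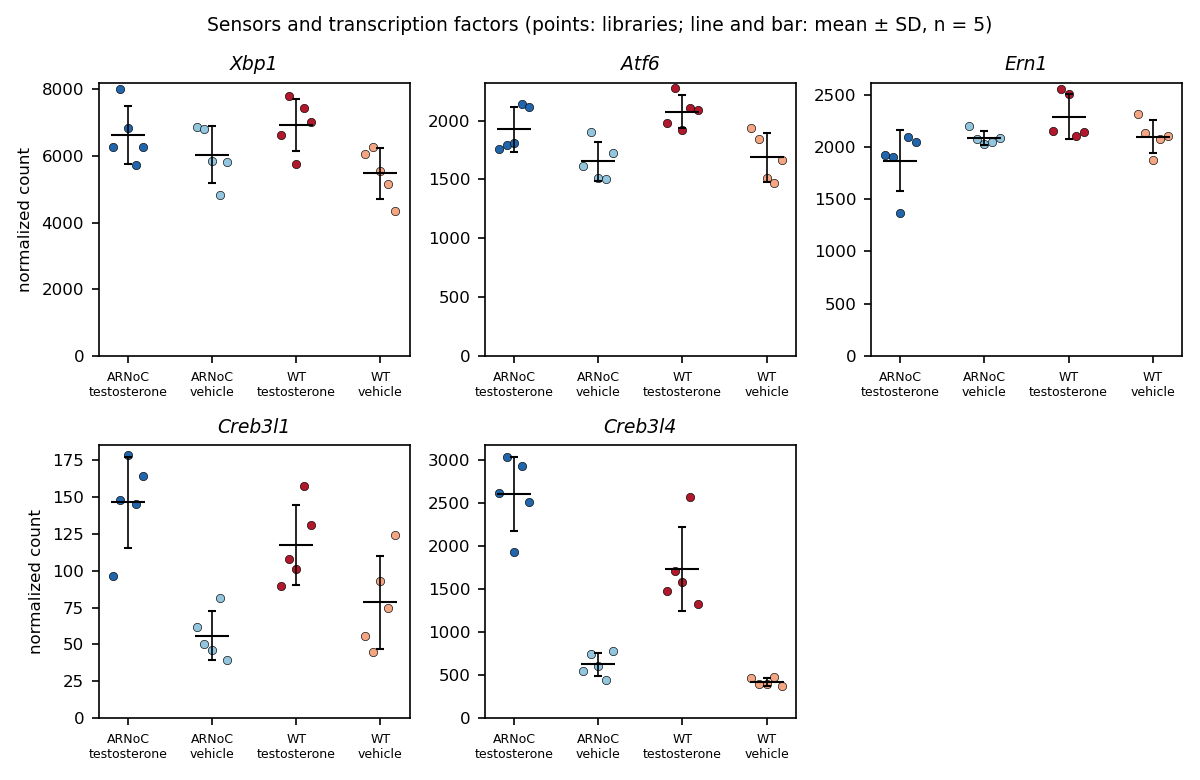
Normalized counts of the 5 regulators in the 4 groups, with points for libraries and a line and bar for the mean ± SD (n = 5), on linear axes from 0 that differ between panels. Creb3l4 shows the widest gap between testosterone and vehicle, and Xbp1, Atf6 and Ern1 overlap between treatments in both genotypes. Under total-count scaling the estimates for Xbp1, Atf6 and Ern1 are below 0 in both genotypes.

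The 9 genes with an exact ERSE in their promoter were all higher with testosterone in both genotypes, with a median log2 change of 1.69 in ARNoC and 1.81 in WT. Their range was 0.82 (Canx) to 2.82 (Derl3) in ARNoC and 0.85 (Canx) to 3.24 (Derl3) in WT. The 27 genes with a promoter entry and no exact ERSE had a median of 1.03 in ARNoC and 1.11 in WT, and 23 were called in ARNoC and 24 in WT. The shares of all genes called higher were 19.4% in ARNoC and 20.4% in WT. Large responses were found on both sides, since Fkbp11, Sdf2l1 and Creb3l4 had no exact ERSE in the window. The motif was chosen with earlier results of these genes known, so this is a description with no test.

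Levels of different genes can be set side by side per length of their exons. The length is that of all annotated exons of a gene merged, and which of them this tissue uses was not tested. These levels were compared by their spread only, with no test between genes. In ARNoC with testosterone the highest was P4hb at 13945 ± 1712 normalized counts per kilobase, followed by Calr at 8247 ± 963, Hspa5 at 8028 ± 1893 and Dnajc10 at 7433 ± 1525 (SD, n = 5), and the last 3 did not differ beyond their spread. With vehicle in ARNoC, P4hb at 6427 ± 574 and Dnajc10 at 6320 ± 1205 led and did not differ beyond their spread, ahead of Pdia3 at 2364 ± 148 and Calr at 2282 ± 335. In WT with testosterone P4hb had 15960 ± 1360, Calr 9055 ± 2094, Hspa5 8794 ± 2770 and Dnajc10 6353 ± 908 per kilobase, against 5903 ± 868 for P4hb, 2276 ± 145 for Calr, 2151 ± 242 for Hspa5 and 4073 ± 453 for Dnajc10 in WT with vehicle. Fkbp14 lay at the low end, with 32.3 ± 5.33 in ARNoC with testosterone, 22.3 ± 5.12 in ARNoC with vehicle, 28.8 ± 5.63 in WT with testosterone and 23.6 ± 5.60 in WT with vehicle.

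Few differences in level of the 43 genes between the genotypes passed any test. In vehicle-treated mice, edgeR called 0 of the 43 genes between ARNoC and WT, where it called 0.321% of all genes tested, and limma-voom called 0. DESeq2 called 1, where it called 0.898% of all genes. By edgeR 3 of the 43 had an unadjusted p under 0.05, against 7.49% of all genes. The median log2 difference was 0.05, ARNoC over WT. With testosterone edgeR again called 0, where it called 1.69% of all genes, and limma-voom called 0. DESeq2 called 1, where it called 3.23% of all genes. By edgeR 3 of the 43 had an unadjusted p under 0.05, against 14.7% of all genes. The median difference was then -0.06.

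The gene DESeq2 called in vehicle was Dnajc10. Its 5 ARNoC vehicle libraries, at 24645 to 40418, all lay above the 5 WT vehicle libraries, at 18097 to 23327, which was true in this direction of 0.950% of all genes tested. ARNoC was 1.56-fold higher (log2 0.64, 95% interval 0.33 to 0.95; adjusted p = 0.0765 by edgeR and 0.00285 by DESeq2). By edgeR it was called without ARNoC vehicle library 4 (adjusted p = 0.0280) or without ARNoC testosterone library 3 (adjusted p = 0.0286). With testosterone the genotypes overlapped (log2 0.23, 95% interval -0.08 to 0.54; adjusted p = 0.490).

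Creb3l4 was the gene DESeq2 called with testosterone. It was 1.51-fold higher in ARNoC than in WT (log2 0.59, 95% interval 0.25 to 0.94; adjusted p = 0.0795 by edgeR and 0.0230 by DESeq2), with 1937 to 3032 normalized counts in ARNoC, against 1323 to 2569 in WT. By edgeR it was called without WT testosterone library 4 (adjusted p = 0.00819) or without ARNoC testosterone library 3 (adjusted p = 0.0421). With vehicle the difference was of the same size, 1.49-fold (log2 0.58, 95% interval 0.22 to 0.94; adjusted p = 0.239). For Ern1 the 5 ARNoC testosterone libraries, at 1371 to 2095, lay below the 5 WT testosterone libraries, at 2103 to 2552, a separation found in this direction in 2.33% of all genes (log2 -0.29, 95% interval -0.48 to -0.10; adjusted p = 0.112). Uggt1 with vehicle (log2 0.26; adjusted p = 0.292) and Edem3 with testosterone (log2 -0.24; adjusted p = 0.309) were the other genes with an unadjusted p under 0.05.

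The response itself was compared between genotypes as the ARNoC log2 change minus the WT log2 change. None of the 43 genes was called: 0 by edgeR, where 0% of all genes were called, 0 by DESeq2, where 0.157% were, and 0 by limma-voom. At an unadjusted p under 0.05 edgeR had 4 of the 43, against 8.56% of all genes. Dnajc1 (-0.33, 95% interval -0.61 to -0.05), Uggt1 (-0.27, -0.51 to -0.03), Ern1 (-0.29, -0.55 to -0.03) and Creb3l1 (0.80, 0.07 to 1.54) were these 4, with adjusted p-values of 0.503 to 0.538. The intervals of the strongest responders were wide, from -1.27 to 0.43 for Derl3 and from -1.14 to 0.15 for Fkbp11, and that of Txndc5 was narrow, from -0.18 to 0.22.

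The estimate was below 0, a smaller response in ARNoC, for 35 of the 43 genes (81.4%), against 49.0% of all genes tested, with a median of -0.14, against 0.01 over all genes. All 11 genes of the BiP cycle, all 3 of the calnexin cycle and all 10 of degradation were below 0. The genes share the same 20 libraries, so this count is not one of independent observations. Without WT testosterone library 2, the library with the highest counts in 36 of the genes, the median was -0.04, and without WT testosterone library 3 it was -0.23.

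**Figure D5:**
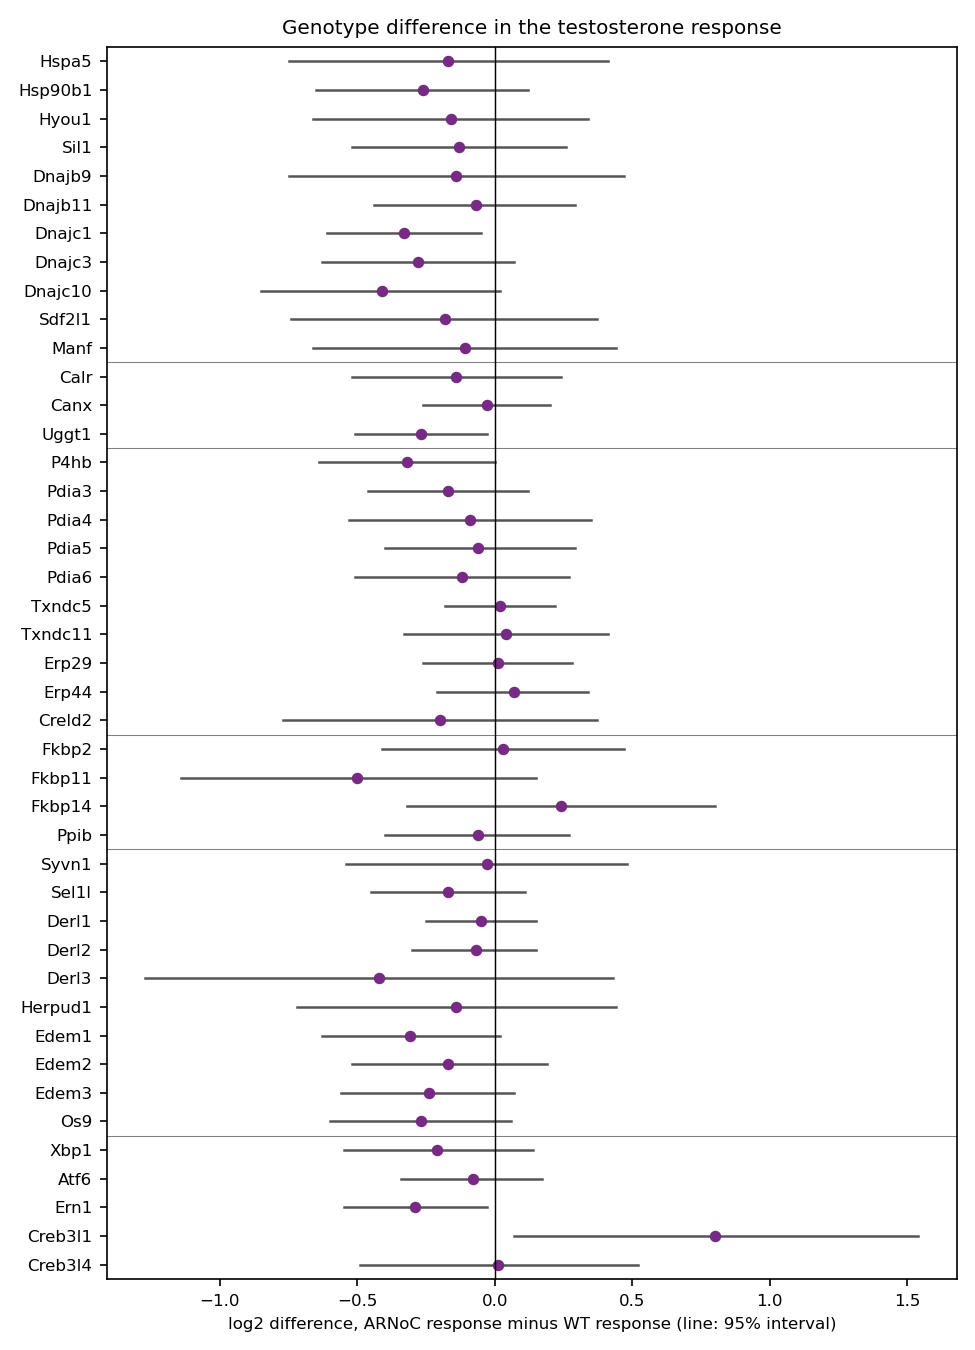
Difference between genotypes in the response of each of the 43 genes, as the ARNoC log2 fold change minus the WT log2 fold change (points) with 95% intervals (lines), from edgeR. Most points lie slightly left of 0, 39 of the 43 intervals include 0, and Creb3l1 lies farthest to the right at 0.80.

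Other genes of the same pathways were counted from lists. Of 40 tested further folding factors of the ER, 17 were higher and 3 lower with testosterone in ARNoC, and 20 were higher and 7 lower in WT. The shares of all genes tested were 19.4% higher and 16.8% lower in ARNoC, and 20.4% higher and 18.8% lower in WT. The median log2 changes of the 40 folding factors were 0.24 in ARNoC and 0.25 in WT, against 1.10 and 1.12 for the 43 genes. Txndc16, a thioredoxin-domain protein, had the smallest adjusted p of these in WT and was lower in both genotypes, with 157.8 ± 22.8 normalized counts in ARNoC with testosterone, against 515.1 ± 67.0 with vehicle, and 171.9 ± 8.51 in WT with testosterone, against 870.1 ± 46.0 with vehicle (SD, n = 5; log2 -1.70 in ARNoC and -2.33 in WT; adjusted p = 5.43e-11 and 1.03e-12). Rcn1, a calcium-binding protein of the ER, had 8141 ± 715 in ARNoC with testosterone, against 2352 ± 258 with vehicle, and 5441 ± 548 in WT with testosterone, against 1932 ± 161 with vehicle (3.47-fold in ARNoC and 2.83-fold in WT; adjusted p = 9.93e-12 and 1.14e-10). Between genotypes, edgeR called Txndc16 and Qsox1 lower in ARNoC with vehicle (adjusted p = 0.000241 and 0.0194), where 0.321% of all genes were called. With testosterone it called Rcn1 and Prdx4 higher in ARNoC (adjusted p = 0.000897 and 0.00198), where 1.69% were.

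Of 28 further genes of ER-associated degradation, 12 were higher and 2 lower in ARNoC, and 13 were higher and 0 lower in WT (by edgeR, with 16 at an unadjusted p under 0.05 in either direction in WT). Beside these stand shares of all genes of 19.4% higher and 16.8% lower in ARNoC, and 20.4% and 18.8% in WT. The median log2 changes of these 28 genes were 0.14 in ARNoC and 0.19 in WT. Erlin1, part of a complex that degrades active calcium channels, was 2.23-fold higher in ARNoC and 2.11-fold in WT (adjusted p = 1.00e-09 and 2.92e-09). Stt3b, a catalytic subunit of the oligosaccharyltransferase, was 2.41-fold higher in ARNoC and 2.18-fold in WT (adjusted p = 8.97e-10 and 4.89e-09).

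In the arm of PERK and ATF4, the branch of the unfolded protein response that slows translation, 5 of 12 genes were higher and 1 lower in ARNoC, and 4 were higher and 0 lower in WT (by edgeR, with 5 at an unadjusted p under 0.05 in either direction in WT). Of all genes, 19.4% were higher and 16.8% lower in ARNoC, and 20.4% higher and 18.8% lower in WT. The median log2 changes of these 12 genes were 0.40 in ARNoC and 0.26 in WT. Eif2ak3, which encodes PERK, was 1.30-fold higher in ARNoC and 1.66-fold in WT (adjusted p = 0.00125 and 8.20e-07). Ddit4, an inhibitor of mTORC1, was 3.78-fold higher in ARNoC and 3.05-fold in WT (adjusted p = 1.54e-07 and 1.32e-06). Ddit3, the stress factor CHOP, was added after its values were seen: it had 139.8 ± 28.0 normalized counts in ARNoC with testosterone, against 176.2 ± 21.4 with vehicle, and 147.6 ± 17.1 in WT with testosterone, against 172.6 ± 22.9 with vehicle (log2 -0.33 in ARNoC and -0.21 in WT; adjusted p = 0.0602 and 0.220).

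Among 7 relatives of the regulators and their proteases, 3 were higher in ARNoC and the same 3 in WT. Of all genes, 19.4% were higher in ARNoC and 20.4% in WT. The median log2 changes of these 7 genes were 0.02 in ARNoC and 0.16 in WT. Mbtps1, the site-1 protease that cuts ATF6, was 1.73-fold higher in ARNoC and 1.60-fold in WT (adjusted p = 7.48e-09 and 5.40e-08), and Creb3l2 was 1.32-fold higher in ARNoC and 1.49-fold in WT (adjusted p = 3.10e-05 and 3.83e-07). The third was Atf6b. With testosterone, edgeR also called Mbtps1 higher in ARNoC than in WT (log2 0.26; adjusted p = 0.0365), where 1.69% of all genes were called in either direction.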

How the data were processed

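Per the submitters' processing notes, reads were handled with FastQC 0.11.7, HISAT2, SAMtools 1.5, HTSeq and DESeq2 on mm10. The sources used here do not give the gene models, strandedness of counting or read filters. Raw counts per gene were deposited by the authors, with a signal table of counts divided by the library's size factor, and the size factors as ratios (0.645 to 1.67). A gene was tested if 5 or more of the 20 libraries had 10 or more normalized counts, with edgeR 4.0.16 in R 4.3.3 (TMM, 1 mean per group, quasi-likelihood F-test, Benjamini-Hochberg, 0.05), tested on simulated data. SEs are the log2 change over the root of F. DESeq2 1.42.0, limma 3.58.1 (voom), other scalings, no filter and leaving libraries out were alternatives. Normalized counts in the text are the deposited ones. Pair ratios used exact permutation (scipy 1.17.1). Library totals of 8861646 to 21600352 limit precision for low genes. The members, roles and lists were chosen with earlier results of these data known. Library values were given, by rule, for the 2 genes with the smallest adjusted p in WT per role, genes not called in a genotype, and the regulators; Hspa5 and Derl3 were added with their promoters. Coordinates are those of GENCODE and RefSeq on GRCm38.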

Additional observations from a re-analysis of the deposited data

Results flagged for a closer look

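In each of 172 groups of 5 libraries (43 genes in 4 groups), the gap between the highest or lowest library and its neighbour was set against the whole range, and 7 groups (4.07%) had a ratio above 0.71. Chance alone gives about 1 in 20.

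In ARNoC with testosterone, Ern1, which encodes IRE1 alpha, had its lowest library at 1371 normalized counts (library 3), with the others at 1906 to 2095. In ARNoC with vehicle, library 2 stood highest for 3 genes: Dnajb9 at 911 (others 521 to 627), Pdia3 at 8228 (others 7042 to 7351) and Pdia4 at 2065 (others 1779 to 1822). In WT with vehicle, library 5 stood lowest for Fkbp2 at 739 (others 898 to 953) and for Ppib at 3137 (others 3760 to 3962). In the same group, library 4 stood highest for Hsp90b1 at 9967 (others 8558 to 8863).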

How the results depend on the processing

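The numbers of the 43 genes called higher with testosterone were 36 to 39 in ARNoC and 37 to 39 in WT when each of the 20 libraries was left out in turn, with medians of 0.94 to 1.10 in ARNoC and 1.04 to 1.17 in WT. With other tools, filters or subsets of groups they were 37 to 39 in ARNoC and 38 to 40 in WT. Total-count scaling was the exception: 33 higher and 1 lower in ARNoC and 33 higher and 1 lower in WT, medians 0.75 and 0.68, and, as changes of sign among genes called on either scale, log2 changes in WT of -0.02 for Derl1, -0.08 for Xbp1, -0.12 for Atf6 and -0.29 for Ern1, and in ARNoC of -0.12 for Atf6; the cause was not tested. On that scale 1178 of all genes were higher and 7548 lower in ARNoC (2962 and 2565 with trimmed means), and 1099 higher and 9120 lower in WT (3114 and 2871). Total-count scaling and DESeq2 each called 1 gene higher in ARNoC than in WT with vehicle and 1 with testosterone, and leaving out 1 library gave 0 to 1 for both; medians were then 0.01 to 0.11 with vehicle and -0.14 to 0.02 with testosterone. The interaction had 0 calls among the 43 in every alternative run, with medians of -0.23 to -0.04 when libraries were left out. DESeq2 called 9 genes higher and 15 lower for it over all genes, and edgeR 0. Of 5762 single-gene values, 65 changed their call: 49 lost it, 11 gained it and 5 reversed. A further 143 changed sign with no call on either side. No paired analysis was possible because the labels carry no replicate numbers that tie a library of 1 group to a library of another. Depth limits the genes near 100 counts, Fkbp14, Creb3l1 and Pdia5.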

Other observations

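Chaperones outside the ER were counted in the same way. Of 27 chaperones of the cytosol, 4 were higher and 3 lower with testosterone in ARNoC, and 3 were higher and 4 lower in WT, with median log2 changes of 0.12 in ARNoC and 0.01 in WT. Over all genes tested, 19.4% were higher and 16.8% lower in ARNoC, and 20.4% were higher and 18.8% lower in WT, so all 4 counts lay below these shares. Dnaja2, a J protein of the cytosol, had 2538 ± 151 normalized counts in ARNoC with testosterone, against 3474 ± 274 with vehicle, and 2609 ± 203 in WT with testosterone, against 3467 ± 287 with vehicle (SD, n = 5). It was lower in both (log2 -0.45 in ARNoC and -0.40 in WT; adjusted p = 7.60e-05 and 0.000211, edgeR). Cct4, a subunit of the cytosolic chaperonin TRiC, was also lower in both (log2 -0.42 in ARNoC and -0.38 in WT; adjusted p = 0.000175 and 0.000523, edgeR). Hspa8, the cytosolic relative of BiP, named after its values were seen, had log2 changes of -0.32 in ARNoC (adjusted p = 0.0805) and -0.53 in WT (adjusted p = 0.00601). Of 12 chaperones and proteases of mitochondria, 2 were higher in ARNoC, Hspe1 and Hspd1, and 1 in WT, Htra2.

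An exact ERSE was also found in the promoters of 28 genes outside the set and outside chromosome 18, of which 9 were tested. In ARNoC 1 of these was higher, Alg12, and 1 lower, Pan2, and in WT 2 were higher, Alg12 and Xlr3a, and 1 lower, Adcy3. Of all genes tested, 19.4% were higher and 16.8% lower in ARNoC, and 20.4% higher and 18.8% lower in WT. The median log2 change of the 9 genes was 0.02 in ARNoC and 0.08 in WT.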
